A study of Homo sapiens with 6 samples.

Results

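The genes described here encode 36 proteins of the centromere, the kinetochore and the spindle checkpoint and were taken from the expression tables by gene symbol. All 36 were found among the 15953 genes with deposited expression values. By role, 17 belong to the inner centromere, 13 to the outer kinetochore and 6 to the checkpoint.

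The kinetochore is the protein structure that ties a chromosome to the microtubules of the spindle in mitosis. It is built on centromeric chromatin, where nucleosomes carry the histone H3 variant CENP-A, and an inner layer of CENP proteins, the constitutive centromere-associated network (CCAN), links this chromatin to an outer layer that holds microtubules. Kinetochores without microtubules activate the spindle checkpoint, which delays anaphase by holding back the anaphase-promoting complex. Many of these genes are transcribed in waves through the cell cycle, and their RNA is generally abundant in dividing tumour cells.

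RNA-seq libraries were made from EJ cells, a human bladder cancer cell line, that carried either a lentiviral control hairpin (shNC, 3 libraries) or a hairpin against STIL (shSTIL, 3 libraries), a gene whose protein is needed to build centrioles. The study's methods describe the sequenced knockdown cells as stable, and the sample labels name hairpins. The deposited columns instead use si, the study's prefix for siRNA. The hairpin sequence, the number of hairpins, the use of single clones and the source of the replicates (separate cultures or not) are not given in the sources used here, so P-values measure only the spread between these libraries, which may be technical. Libraries held 16214769 to 16901631 estimated reads.

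STIL itself had a level of 5.98, 6.10 and 6.01 log2 CPM (read counts scaled to library size, on the log2 scale) in the shNC libraries and 4.05, 4.06 and 4.01 in the shSTIL libraries, which left 25.2% of the control level (difference −1.99 ± 0.05 SE, limma adjusted P = 6.1e-12). Each group stayed together and the targeted gene separated them as labelled. Of the epithelial and urothelial markers, KRT18 lay at 9.25 to 9.36 log2 CPM over the 6 libraries, whereas CDH1 (−3.05 to −1.72) and UPK2 (−3.05 to −1.21) reached the lowest value of the tables, −3.05, and GATA3 was low (−1.50 to −0.54). Of the 9 measured markers 4 were called between the groups, in both directions. UPK1B (difference −1.12) and KRT8 (−0.70) were lower and KRT7 (0.49) and PPARG (0.26) higher in shSTIL. Over all genes, 23.6% were called lower and 23.5% higher. UPK1B was low in both groups, with means of 0.26 log2 CPM in shNC and −0.86 in shSTIL. Summed CPM of the 9 measured of 11 epithelial and urothelial markers was 1093 to 1153 in shNC and 991 to 1023 in shSTIL. The sums of other cell types were 2.45 to 3.80 against 1.34 to 1.99 for fibroblasts (1 of 6 markers measured), 12.0 to 12.97 against 14.6 to 16.8 for immune cells (4 of 6) and 1.11 to 1.46 against 1.06 to 1.24 for endothelium (4 of 4). The part of these markers in the results was not tested.

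Expression of most of these genes was lower in STIL-knockdown EJ cells, but not of all. At an adjusted P-value under 0.01 (limma, Benjamini-Hochberg over all genes), the threshold for a differentially expressed gene (DEG) used here, 24 of the 36 genes were lower in shSTIL, 2 were higher and 10 did not pass. Over all genes tested, 23.6% were DEGs in the lower direction and 23.5% in the higher direction. The median difference of the 36 genes was −0.36 on the log2 scale, which is 78.1% of the control level, and that of all 15953 genes was 0.01. The differences ranged from −1.45 for ZWINT to 0.32 for CENPL, and 11 of the 36 genes lay below −0.5, against 14.2% of all genes. In 29 genes every shSTIL library lay below every shNC library (30.5% of all genes), in 3 every shSTIL library lay above (29.9% of all genes), and in 4 the groups overlapped. With 3 libraries a group, the exact two-sided permutation test of a single gene cannot give a P-value under 0.1.

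**Figure D1:**
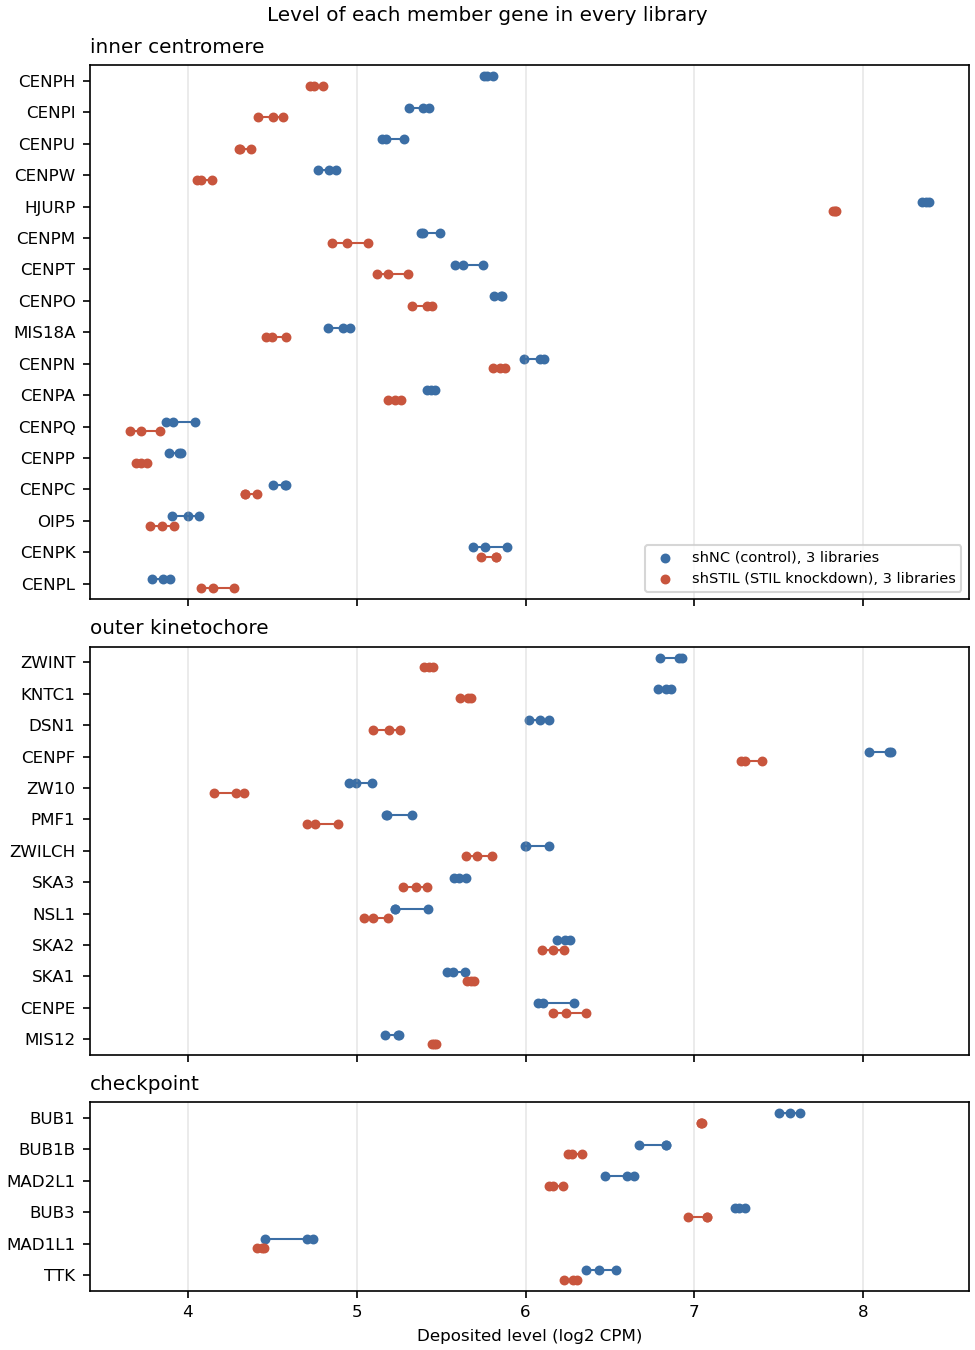
Level of each of the 36 genes in every library, in log2 CPM, grouped by role; blue points are the 3 shNC libraries and red points the 3 shSTIL libraries. The points of the 2 groups overlap in 4 genes, among them CENPK and CENPE.

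The inner centromere genes were mostly lower, with CENPH, CENPI and CENPU the lowest and CENPL in the opposite direction. Of the 17 genes, 11 were lower (23.6% of all genes), 1 was higher (23.5% of all genes) and 5 did not pass, with a median of −0.39. CENPH (chr5:69189548-69210357, plus strand, GRCh38), a subunit of the CENP-HIKM group of the CCAN, was at 5.75, 5.77 and 5.81 log2 CPM in shNC and at 4.75, 4.80 and 4.73 in shSTIL. The groups were far apart, and the difference was −1.02 ± 0.05 (SE, adjusted P = 8.8e-10), or 49.4% of the control level. CENPI, of the same group, was at 5.31, 5.43 and 5.39 in shNC and at 4.56, 4.42 and 4.50 in shSTIL. It fell to 54.2% (difference −0.88 ± 0.06, adjusted P = 2.6e-08). CENPU, which belongs to the CENP-OPQU group and binds the kinase PLK1, was at 5.15, 5.28 and 5.18 against 4.30, 4.31 and 4.37. Again no shSTIL library reached a shNC library, with a difference of −0.87 ± 0.06 (adjusted P = 2.8e-08). CENPW, a histone-fold protein that pairs with CENPT, was at 4.77, 4.84 and 4.88 against 4.05, 4.08 and 4.14 (difference −0.74 ± 0.06, adjusted P = 2.9e-07).

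At the other end, CENPL (chr1:173799550-173824720, minus strand), the partner of CENPN, was at 3.85, 3.90 and 3.79 in shNC and at 4.08, 4.15 and 4.27 in shSTIL. All shSTIL libraries lay above all shNC libraries, with a difference of 0.32 ± 0.08 (adjusted P = 0.0030). This call was lost whenever a single library of either group was left out, with adjusted P-values up to 0.028. CENPK, the partner of CENPH, was at 5.76, 5.89 and 5.69 in shNC and at 5.82, 5.83 and 5.74 in shSTIL. Here the groups overlapped, and the difference of 0.02 had a 95% confidence interval of −0.10 to 0.13 (adjusted P = 0.83). Its sign turned without the third shNC library (−0.031) and without the second shSTIL library (−0.00054).

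The remaining inner centromere genes lay between these. HJURP, the chaperone that deposits CENP-A, fell to 68.9% of control (difference −0.54, adjusted P = 3.8e-09) in narrow groups of 8.35 to 8.39 and 7.82 to 7.84 log2 CPM. MIS18A, which licenses centromeres for new CENP-A, fell by 0.39 (adjusted P = 9.7e-05), and CENPA itself fell by 0.22 (adjusted P = 0.0011). OIP5, the Mis18-beta partner of MIS18A, had a difference of −0.15 and did not pass (adjusted P = 0.13), with overlapping groups. Thus 3 of the 4 genes of CENP-A and its loading passed, all lower (23.6% of all genes). In the CCAN, CENPM fell by 0.47, CENPT by 0.45, CENPO by 0.45 and CENPN by 0.22, with adjusted P-values of 7.7e-04 or less. CENPM lost the threshold without the third shSTIL library (adjusted P = 0.011), and CENPN passed in 1 of the 6 fits that left out a library, with adjusted P-values up to 0.021. CENPC, which binds CENP-A nucleosomes, had a difference of −0.19 (adjusted P = 0.015), CENPP −0.21 (adjusted P = 0.031) and CENPQ −0.21 (adjusted P = 0.051), and none of these passed. CENPP and CENPQ are among the genes with the fewest reads here, 215 to 267 per library. Over the 13 CCAN genes, 8 were lower (23.6% of all genes), 1 was higher (23.5% of all genes) and 4 did not pass, with a median of −0.45.

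**Figure D2:**
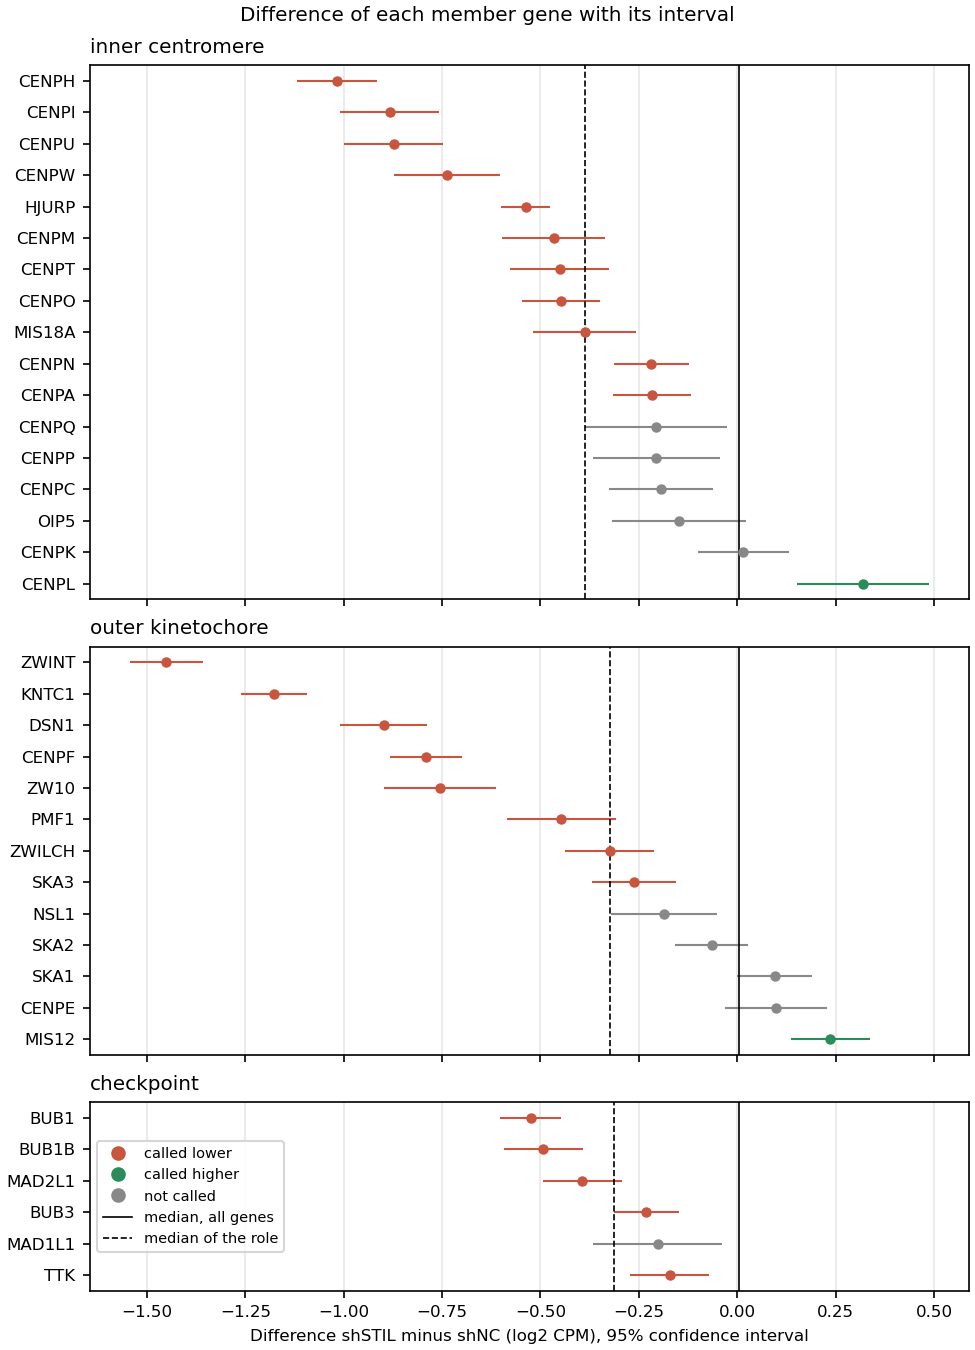
Difference shSTIL minus shNC of each gene in log2 CPM, with its 95% confidence interval, ordered within each role; red points are DEGs that were lower, green DEGs that were higher and grey genes that did not pass. The dashed line is the median of the role (−0.39, −0.32 and −0.31 from top to bottom) and the solid line the median of all genes (0.01).

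The outer kinetochore held the 2 largest decreases of the 36 genes, ZWINT and KNTC1, next to genes whose groups overlapped. Of 13 genes, 8 were lower (23.6% of all genes), 1 was higher (23.5% of all genes) and 4 did not pass, with a median of −0.32. ZWINT, which binds the scaffold KNL1 and helps to bring the RZZ complex to kinetochores, was at 6.93, 6.80 and 6.91 log2 CPM in shNC and at 5.45, 5.40 and 5.43 in shSTIL. Its level was 36.6% of control, with a difference of −1.45 ± 0.04 (SE, adjusted P = 1.7e-11). KNTC1 (chr12:122527246-122626396, plus strand), the large Rod subunit of the RZZ complex, was at 6.79, 6.86 and 6.83 in shNC and at 5.66, 5.68 and 5.61 in shSTIL. It was left at 44.2% of control (difference −1.18 ± 0.04, adjusted P = 4.0e-11). DSN1, a subunit of the MIS12 complex that joins the CCAN to the outer layer, was at 6.02, 6.14 and 6.09 against 5.19, 5.26 and 5.10 (difference −0.90 ± 0.05, adjusted P = 6.5e-09). CENPF, a large coiled-coil protein of the fibrous corona, was at 8.03, 8.15 and 8.16 against 7.40, 7.30 and 7.28 (difference −0.79 ± 0.04, adjusted P = 4.0e-09). For all 4 genes the groups lay apart by much more than the spread within either.

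MIS12, whose product gives the MIS12 complex its name, was the only DEG of this role in the higher direction. It was at 5.17, 5.25 and 5.25 in shNC and at 5.46, 5.45 and 5.47 in shSTIL, a difference of 0.24 ± 0.05 (adjusted P = 5.8e-04) or 1.18-fold. CENPE, the plus-end-directed kinesin of the corona, was at 6.10, 6.29 and 6.07 in shNC and at 6.36, 6.24 and 6.16 in shSTIL. These groups overlapped, and its difference of 0.10 had an interval of −0.03 to 0.23 (adjusted P = 0.19).

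The other RZZ subunits were lower as well, ZW10 by 0.76 (adjusted P = 3.7e-07) and ZWILCH by 0.32 (adjusted P = 1.2e-04). The RZZ complex recruits dynein and checkpoint proteins to kinetochores. All 3 of its subunits passed in the lower direction (23.6% of all genes), with a median of −0.76. ZWILCH passed in 2 of the 6 fits that left out a library, with adjusted P-values up to 0.020. In the MIS12 complex, PMF1 fell by 0.45 (adjusted P = 4.1e-05) and NSL1 had a difference of −0.19 (adjusted P = 0.021). In the SKA complex, which holds on to shortening microtubules, SKA3 fell by 0.26 (adjusted P = 4.4e-04), SKA2 differed by −0.07 (adjusted P = 0.22) and SKA1 by 0.10 (adjusted P = 0.086). PMF1 lost the threshold without the first or the third shSTIL library (adjusted P up to 0.012), and SKA3 without the second shNC, the third shNC or the third shSTIL library (adjusted P up to 0.017). SKA1 was not a DEG although its shSTIL libraries all lay above its shNC libraries.

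All 6 checkpoint genes had lower values in every shSTIL library than in any shNC library (30.5% of all genes). Of them 5 were DEGs, all lower (23.6% of all genes), with a median of −0.31. The differences were smaller than those at the lower end of the other roles. BUB1, a kinase that docks checkpoint proteins and marks the inner centromere, was at 7.50, 7.57 and 7.62 log2 CPM in shNC and at 7.04, 7.05 and 7.04 in shSTIL. It fell to 69.5% of control (difference −0.52 ± 0.04 SE, adjusted P = 3.5e-08). BUB1B, which encodes BubR1, a part of the mitotic checkpoint complex, was at 6.67, 6.83 and 6.83 against 6.33, 6.28 and 6.25 (difference −0.49 ± 0.05, adjusted P = 8.8e-07). MAD2L1, which encodes MAD2, the protein that binds CDC20, was at 6.47, 6.60 and 6.64 against 6.16, 6.22 and 6.14 (difference −0.39 ± 0.05, adjusted P = 7.7e-06). These 3 genes fell to between 69.5% and 76.1% of control.

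BUB3, which carries BUB1 and BUB1B to kinetochores, was at 7.30, 7.26 and 7.24 in shNC and at 7.07, 6.96 and 7.08 in shSTIL (difference −0.23 ± 0.04, adjusted P = 1.4e-04). It lost the threshold without the first or the second shNC library (adjusted P up to 0.012). TTK, the kinase MPS1 that starts checkpoint signalling, was at 6.36, 6.54 and 6.43 against 6.28, 6.30 and 6.23. Its groups were close to each other, and the difference of −0.17 ± 0.05 (adjusted P = 0.0059) lost the threshold whenever 1 library was left out, with adjusted P-values up to 0.097. MAD1L1, which encodes MAD1, the anchor of MAD2 at kinetochores, was at 4.71, 4.46 and 4.74 against 4.45, 4.41 and 4.44. The second shNC library almost met the shSTIL libraries, and MAD1L1 did not pass (difference −0.20 ± 0.08, adjusted P = 0.037). Without that library it passed (difference −0.29, adjusted P = 0.0031).

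Proteins of these complexes work together, so the differences of partners were set beside each other. Here the word complex also covers functional groups, such as CENP-A and its loading, the fibrous corona and the checkpoint. The ratios are of RNA levels, and amounts of these proteins were not measured. Within each complex, the pair of genes with the largest shift of its log2 ratio was taken, and since it was chosen for its size the shift is given without a test. Ratios of genes outside these complexes were not computed, so the shifts describe these pairs only. In the MIS12 complex, the log2 ratio of MIS12 to DSN1 was −0.85, −0.88 and −0.84 in shNC and 0.27, 0.19 and 0.37 in shSTIL, a shift of 1.14. In CENP-HIKM, the ratio of CENPH to CENPK went from −0.01, −0.12 and 0.12 to −1.07, −1.03 and −1.01, a shift of −1.03. These were the largest shifts of any complex, each of a strongly lower gene against a partner that did not fall.

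The fibrous corona came next, with a shift of 0.89 in the ratio of CENPE to CENPF. It was followed by ZWILCH to KNTC1 in the RZZ complex (0.85), CENPP to CENPU in CENP-OPQU (0.67) and CENPL to CENPN in CENP-LN (0.54). The shifts were smallest for HJURP to OIP5 (−0.39), SKA1 to SKA3 (0.36), BUB1 to TTK (−0.35) and CENPT to CENPW (0.29). The checkpoint was thus among the complexes whose genes differed least in their shifts, although with 6 genes it offered the most pairs to choose from, 15. CENP-TW had a single pair, and both of its genes were DEGs in the lower direction, as were 23.6% of all genes.

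**Figure D3:**
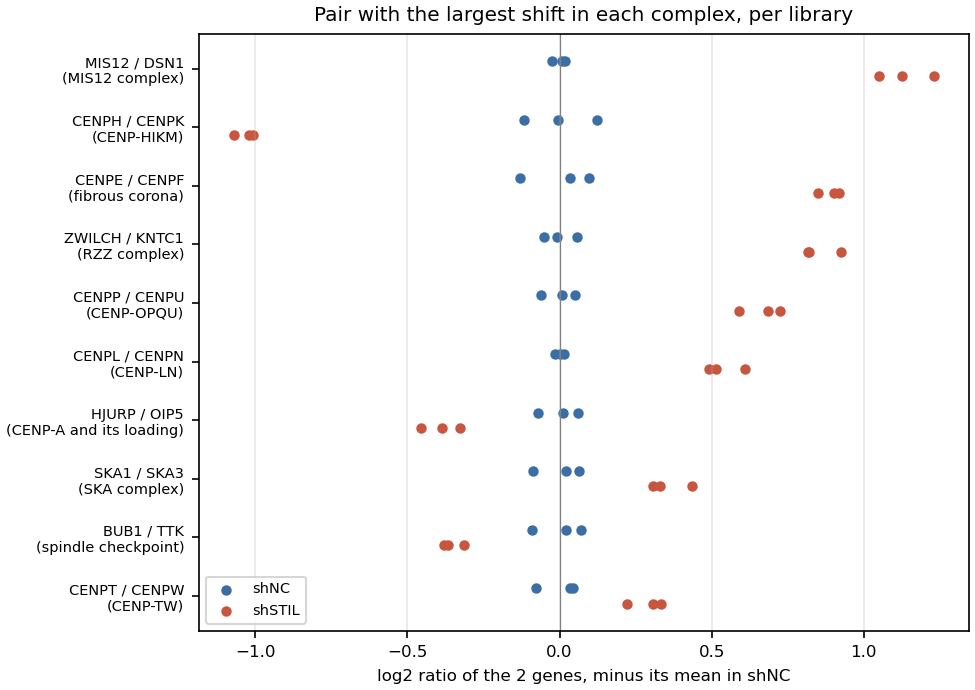
Log2 ratio of the 2 genes with the largest shift in each complex, minus its mean in shNC, with 1 point per library (blue shNC, red shSTIL). In all 10 pairs the 3 shSTIL points lie apart from the 3 shNC points, which follows in part from choosing the largest shift. The share of other gene pairs that separate was not computed. Of all single genes, 30.5% separated in the lower and 29.9% in the higher direction.

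Other genes of the kinetochore and its regulators, and genes of the cell cycle phases, were mostly lower as well. Of 29 further kinetochore genes, 20 were lower (23.6% of all genes), 4 were higher (23.5% of all genes) and 5 did not pass, with a median of −0.27. Their lowest gene was SPC24, a subunit of the NDC80 complex that binds microtubules, which was at 5.22, 5.29 and 5.30 log2 CPM in shNC and at 2.26, 2.18 and 1.96 in shSTIL. That left 11.4% of its control level (difference −3.13 ± 0.09 SE, adjusted P = 1.7e-11), a larger decrease than that of any of the 36 genes. Their highest gene was NDEL1, a dynein regulator (difference 0.64, adjusted P = 3.0e-07).

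Of 30 genes of the G2 and M phases, with the 36 genes left out, 25 were lower, 1 was higher and 4 did not pass, with a median of −0.57. The shares over all genes were 23.6% lower and 23.5% higher. The G2 and M phase genes reached from NUSAP1, a spindle protein (−1.28), to RANGAP1, the activator of the Ran GTPase (0.58). Of 34 S phase genes all 34 were lower, with a median of −1.13, from CCNE2, a cyclin of the G1 to S transition (−2.80), to POLD3, a DNA polymerase subunit (−0.25). The medians of both phase lists lay below that of the 36 genes, −0.36. These lists were lower together with the centromere, kinetochore and checkpoint genes, and their part in the result was not tested. All lists, like the 36 genes, were chosen with earlier results of these data known, so their counts are descriptive only. In bulk RNA, fewer cells in a phase and less RNA per cell cannot be told apart.

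**Figure D4:**
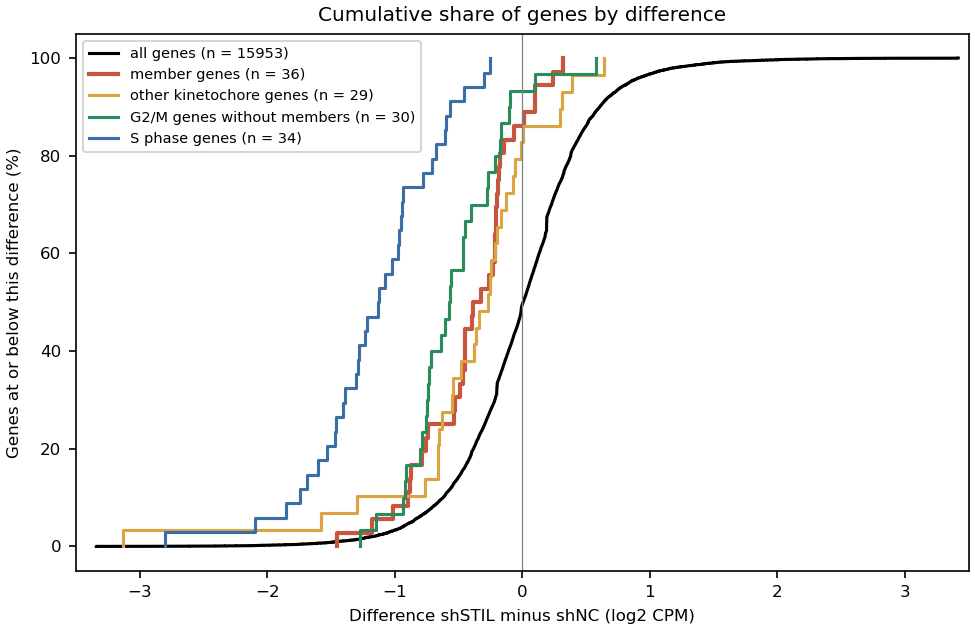
Share of genes (percent) at or below each difference shSTIL minus shNC in log2 CPM, for the 36 genes (red), 29 other kinetochore genes, 30 G2/M genes, 34 S phase genes and all 15953 genes (black). The red curve crosses 50% near its median of −0.36, to the left of all genes (0.01) and to the right of the S phase genes (−1.13).

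Promoter sequences are shown for 5 of the genes because members that move together may share short elements, and these 5 cover a large decrease in the outer layer (ZWINT), the corona pair that parted (CENPF and CENPE), the lowest checkpoint gene (BUB1) and the higher outer gene (MIS12). Each sequence runs 5′ to 3′ on the gene's strand from 250 bases before to 50 bases after its first listed start in RefSeq (GRCh38.p14), in lower case. Capitals mark the cell cycle homology region (CHR, TTTGAA or TTCGAA), the CCAAT box (CCAAT) and E2F letters (TTTGGCGC, TTTCCCGC, TTTGCCGC or TTTCGCGC), searched on both strands, and no motifs overlapped in these promoters. ZWINT lies at chr10:56361210-56361509 on the minus strand, CENPF at chr1:214602945-214603244 on the plus strand, CENPE at chr4:103198294-103198593 on the minus strand, BUB1 at chr2:110678014-110678313 on the minus strand and MIS12 at chr17:5486124-5486423 on the plus strand.
ZWINT: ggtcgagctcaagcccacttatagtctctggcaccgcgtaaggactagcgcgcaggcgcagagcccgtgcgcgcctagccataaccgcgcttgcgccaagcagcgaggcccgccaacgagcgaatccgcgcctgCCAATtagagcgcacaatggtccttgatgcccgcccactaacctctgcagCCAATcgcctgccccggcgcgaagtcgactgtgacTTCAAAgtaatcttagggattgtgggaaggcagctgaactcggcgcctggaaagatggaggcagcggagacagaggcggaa
CENPF: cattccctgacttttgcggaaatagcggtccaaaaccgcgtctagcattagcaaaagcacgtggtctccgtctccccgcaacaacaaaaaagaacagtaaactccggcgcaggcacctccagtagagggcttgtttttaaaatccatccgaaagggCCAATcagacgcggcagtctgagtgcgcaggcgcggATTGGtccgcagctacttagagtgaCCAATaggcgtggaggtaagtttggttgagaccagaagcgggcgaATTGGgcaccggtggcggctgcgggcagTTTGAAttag
CENPE: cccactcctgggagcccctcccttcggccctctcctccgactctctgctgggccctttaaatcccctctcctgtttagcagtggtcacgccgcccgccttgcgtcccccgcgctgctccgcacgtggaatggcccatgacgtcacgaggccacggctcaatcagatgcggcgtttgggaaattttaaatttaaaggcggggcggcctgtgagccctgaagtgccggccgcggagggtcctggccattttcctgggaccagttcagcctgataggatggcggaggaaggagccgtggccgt
BUB1: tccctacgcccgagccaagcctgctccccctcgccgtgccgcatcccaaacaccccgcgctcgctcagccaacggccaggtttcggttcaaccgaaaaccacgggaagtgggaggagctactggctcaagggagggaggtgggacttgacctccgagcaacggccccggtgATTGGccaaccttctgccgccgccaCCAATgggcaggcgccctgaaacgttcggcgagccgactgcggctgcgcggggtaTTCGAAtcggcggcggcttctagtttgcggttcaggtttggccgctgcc
MIS12: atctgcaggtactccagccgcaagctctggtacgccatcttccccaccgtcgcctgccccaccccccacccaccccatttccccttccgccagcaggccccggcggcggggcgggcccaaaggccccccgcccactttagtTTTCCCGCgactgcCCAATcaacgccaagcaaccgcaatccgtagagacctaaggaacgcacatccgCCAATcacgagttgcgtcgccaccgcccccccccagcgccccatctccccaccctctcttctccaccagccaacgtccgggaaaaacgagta

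ZWINT held a CHR on the other strand at position −31 from the start and CCAAT boxes at −116 and −66. CENPF held a CHR at 41 bases after the start and 4 CCAAT boxes. BUB1 held a CHR of the form TTCGAA at 2 and a pair of CCAAT boxes, at −79 on the other strand and at −54. MIS12 held no CHR in this window, but CCAAT boxes at −95 and −42 and E2F letters at −109. CENPE held none of these letters. The printed promoters do not show every case, and none is of an inner centromere gene. DSN1 (difference −0.90) and CENPT (−0.45) held none of these letters either, and CENPU (−0.87) held no CHR. CENPI (−0.88) also held none, but its window (chrX:101100808-101101107, plus strand) lies wholly inside the gene. The GENCODE 29 start of CENPI is at 101098218, so this window may miss its promoter. SKA1 (0.10) held a CHR, as did the lower genes ZW10 (−0.76) and HJURP (−0.54). A match describes the letters only, not binding.

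A promoter was found for 29 of the 36 genes (none was listed for MIS18A, CENPH, CENPM, CENPL, KNTC1, BUB3 and TTK). Some of these windows, that of CENPI among them, lie inside the gene as annotated in GENCODE. The counts and medians below therefore depend on the listed starts. A CHR was present in 15 of the 29 (51.7%), against 16.6% of all 27305 promoters of the same length and 11.8% of the 12621 whose genes are in the expression tables. A CCAAT box was present in 18 of 29 (62.1%), against 35.7% and 36.3%. E2F letters were present in 4 of 29 (13.8%), against 3.33% and 4.95%, and both a CHR and a CCAAT box in 11 of 29 (37.9%), against 6.58% and 4.85%. The median difference was −0.45 for the 15 genes with a CHR and −0.21 for those without, but the order was not the same in every role. It was −0.22 with and −0.33 without among inner centromere genes, −0.76 and −0.19 among outer kinetochore genes, and −0.49 and −0.20 among checkpoint genes (3 with and 1 without). For E2F letters the medians were −0.18 in the 4 genes with them and −0.39 in those without, and for the CCAAT box −0.36 and −0.26. The order for the CCAAT box also differed by role. It was −0.22 with and −0.45 without among inner centromere genes. Among outer kinetochore genes it was −0.45 and −0.19, and among checkpoint genes −0.46 and −0.35. Among the genes of the tables as a whole, the medians were −0.02 with and 0.00 without a CHR. For the CCAAT box they were −0.04 with and 0.03 without. For E2F letters they were −0.10 with and 0.00 without, the reverse of the order in the 29 genes.

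**Figure D5:**
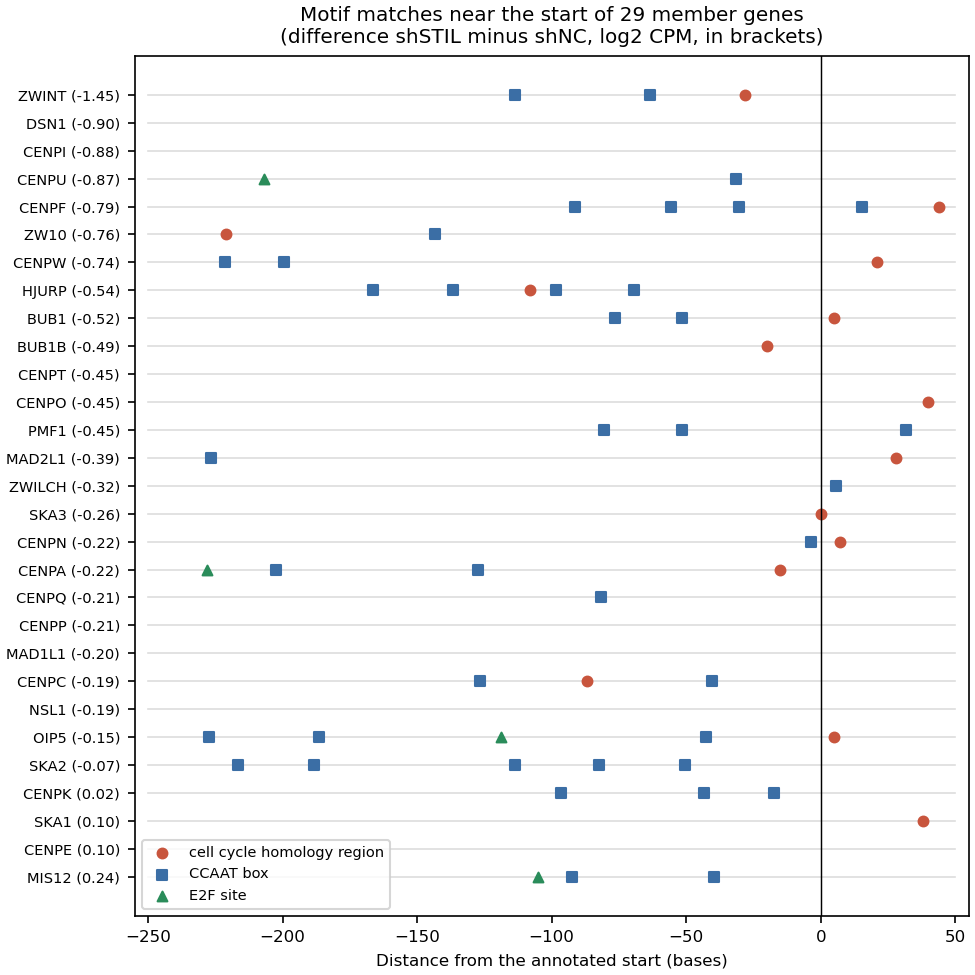
Positions of CHR, CCAAT and E2F letters in the promoter windows of the 29 genes, in bases from the start (0), with each gene's difference shSTIL minus shNC in log2 CPM printed beside its name. A symbol stands at the middle of each match, and the 15 genes with a CHR reach from ZWINT (−1.45) to SKA1 (0.10).

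Reads of several of these genes can be shared with genes that overlap their exons, and the strand setting of the authors' counting is not given in the sources used here. In GENCODE 29 (GRCh38), PMF1 shares 23.3% of its exon bases with the readthrough gene PMF1-BGLAP on the same strand, BUB1B 10.2% with BUB1B-PAK6 and CENPA 6.96% with SLC35F6. Neither readthrough gene passed the test (differences 0.11, adjusted P = 0.74, and −0.57, adjusted P = 0.31). SLC35F6 was higher by 0.16 (adjusted P = 0.0079) while CENPA was lower. On the opposite strand, CENPP shares 38% of its exon bases with IPPK (difference 0.37, adjusted P = 0.0042), CENPO 27% with ADCY3 (0.10, adjusted P = 0.060), CENPN 12.8% with CMC2 (0.34, adjusted P = 1.1e-04) and CENPU 11.7% with PRIMPOL (0.10, adjusted P = 0.32). DERL2, which covers 9.53% of the MIS12 exon bases, differed by 0.06 and did not pass (adjusted P = 0.32). CENPT shares 10.8% with TSNAXIP1 and 6.86% with THAP11, and THAP11 fell by 0.43 (adjusted P = 5.5e-05), close to the 0.45 of CENPT. OIP5 shares 38% of its exon bases with OIP5-AS1, which was not analysed here. The values of these genes are therefore uncertain to the extent of the shared bases.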

How the data were processed

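RNA was extracted with Trizol, and libraries were sequenced on the BGISEQ platform. Per the study's methods and the submitters' processing notes, reads were cleaned with SOAPnuke, aligned with Bowtie2 (hg38) and quantified with RSEM. Tool versions are not given in the sources used here. The authors deposited log2 CPM values for all 6 libraries (15953 genes), and estimated counts for 4 of them (15957 genes). Groups followed the labels, shNC and shSTIL. The file columns use si in place of sh, so labels and columns differ on the kind of knockdown.

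The 36 genes and all lists were chosen with earlier results of these data known. The deposited log2 CPM values were tested with limma 3.58.1 (trended eBayes, no replicate term, R 4.3.3), with Benjamini-Hochberg adjustment over all genes and a threshold of 0.01. Every one of the 36 genes is named, and the 4 lowest and 2 highest of each role are given per library. Intervals are 95% intervals of the fit.

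For edgeR 4.0.16 and DESeq2 1.42.0, reads were recovered from the log2 CPM (prior count 2) and rounded. They differed from the deposited estimated counts by at most 0.0788 reads, and 88% to 88.5% of values were whole within 0.02. The 36 genes had 215 to 5330 reads per library. Replicates of a group differed by more than sampling noise. Scripts were tested on simulated data.

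Same-numbered libraries did not deviate together (correlations −0.12, −0.06 and −0.11). Alternatives were other variance models, scalings, count tests, prior counts (0.5 and 5), a filter at a mean log2 CPM of 1, other thresholds, a replicate block and leaving out each library.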

Additional observations from a re-analysis of the deposited data

How the results depend on the processing

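With the test threshold and libraries kept, 10 alternatives left the direction of all 36 genes unchanged, and 18 of the 26 DEGs passed in each of them. CENPL, CENPN, CENPT, PMF1, SKA3, ZWILCH, BUB3 and TTK lost the threshold in at least 1 alternative, all but TTK only with each gene's own variance or no variance trend. Calls were also gained, for CENPP under both of these variance models, for NSL1 with edgeR and with the filter at a mean log2 CPM of 1, and for CENPC with that filter. The lower genes numbered 18 to 26 over these alternatives, and 28 at an adjusted P-value under 0.05. The higher DEGs went from 2 to 1 with each gene's own variance, to 0 against a 1.2-fold minimum (limma treat) and to 0 with an absolute log2 difference above 1. The lower DEGs went from 24 to 13 and 3 under the last pair of thresholds. Over all genes, the DEGs went from 7509 to 4784 with each gene's own variance, to 3317 against the 1.2-fold minimum and to 951 above 1. Stricter thresholds lower these counts by construction. Median centring moved the median of the 36 genes from −0.36 to −0.31, of the inner centromere from −0.39 to −0.34, of the outer kinetochore from −0.32 to −0.28 and of the checkpoint from −0.31 to −0.27. The median of all genes moved in the same direction, from 0.01 to 0.05. Quantile normalization moved the median of the inner centromere to −0.37.

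Leaving out single libraries gave 18 to 21 lower and 1 to 1 higher genes of the 36 and 4900 to 5638 DEGs over all genes. The lowest numbers of lower genes and of all DEGs came without the third shSTIL library. The median ranged from −0.38 to −0.33 for the 36 genes, from −0.41 to −0.36 for the inner centromere and from −0.37 to −0.28 for the outer kinetochore. Of the 26 DEGs, 18 passed in all 6 such fits, and CENPL, CENPM, CENPN, PMF1, SKA3, ZWILCH, BUB3 and TTK lost the threshold in at least 1, while MAD1L1 gained it without the second shNC library. CENPK turned its sign, from −0.031 to 0.071.

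With a replicate block, 24 lower and 2 higher genes and 6898 DEGs over all genes were found. The numbers shared by the libraries did not mark pairs, and no library correlated best with its own number. The 215 or more reads per library limit the precision of the genes with few reads, such as CENPQ.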
